A study of Saccharomyces cerevisiae S288C with 24 samples.

Results

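The loci near chromosome ends were defined by position alone. A locus was a member when its nearer edge lay within 15 kb of the first or last locus of its nuclear chromosome in the deposited table. By the same rule, 13 loci within that distance were set aside by name or as small nucleolar RNA loci. The members numbered 251 of 6929 loci. They covered all 32 chromosome arms, with 5 to 10 members on an arm. Of the 251, 158 had enough signal to be tested, 33 had at least 1 fragment but too little signal, and 60 had 0 fragments in every library.

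RNA was sequenced from Saccharomyces cerevisiae strains grown in YPD, a rich glucose medium, for 24 h. Sc12 lacks a working TRP5, the tryptophan synthase that makes the last step to tryptophan, and is a clone of a deletion collection made in BY4741, the wild type (WT) of the study. The collection is of mating type a, and both strains share the collection background, in which HIS3, LEU2, MET15 (MET17) and URA3 are deleted. Each strain was grown with 1.2% isobutanol (IB) and 200 µg/ml tryptophan (Trp), with isobutanol alone, with tryptophan alone, and with neither. The 8 groups (Sc12 + IB + Trp, Sc12 + IB, Sc12 + Trp, Sc12, WT + IB + Trp, WT + IB, WT + Trp and WT) had 3 libraries each. Treatment was done in 3 replicates per condition. Whether these were started from separate precultures is not given in the sources used here, and the p-values measure the spread between these libraries. Library sizes ran between 5218711 and 14580261 fragments. TRP5 had 0 to 11 fragments in each Sc12 library and 2921 to 8481 in each WT library, while LEU2, URA3 and MET17 had 0 in all 24. STE2, MFA1 and MFA2, markers of mating type a, had fragments in every library. The labels mark a pair of libraries, replicate 3 of Sc12 and replicate 1 of Sc12 + Trp, as make-up. Without both, 40 members rose and 16 fell in Sc12 + IB against Sc12.

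The ends of yeast chromosomes carry repeated X and Y' elements next to the telomere, followed by a zone of gene families that have spread from end to end. Genes in this zone are often kept low by Sir proteins bound near the telomere and by histone deacetylases acting farther in, and many are switched on under stress or when a nutrient runs out. The families include COS membrane proteins, which help sort other membrane proteins to the vacuole, PAU seripauperins, small mannoproteins of the cell wall, and genes for use of maltose and other sugars. Because copies on different arms are nearly identical, short reads often cannot be placed on one of them.

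The PAU copies show this limit in their letters. RefSeq coding sequences (assembly R64) were compared over 363 bases. PAU6 and PAU18 were identical over the whole length, and both had 0 fragments in the 24 libraries. PAU1 and PAU14 each differed from PAU6 at 10 bases and shared the printed stretch, and both also had 0. PAU13 differed at 13 bases and had 221 fragments, PAU20 at 9 with 101 fragments, and PAU24 at 17 with 874 fragments. Bases 241 to 300 of each coding sequence are given here, with capitals where the base differs from PAU6. The same 60 letters as in PAU13 occur in PAU4, PAU10, PAU11 and PAU12, which are not printed.
PAU6 (chrXIV:782158-782217, + strand): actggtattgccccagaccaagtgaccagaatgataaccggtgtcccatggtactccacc
PAU18 (chrXII:13146-13205, - strand): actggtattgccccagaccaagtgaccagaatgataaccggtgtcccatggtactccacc
PAU1 (chrX:8839-8898, - strand): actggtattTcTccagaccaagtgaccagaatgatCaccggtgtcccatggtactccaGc
PAU14 (chrIX:8856-8915, - strand): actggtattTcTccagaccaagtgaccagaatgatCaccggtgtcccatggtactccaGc
PAU13 (chrVIII:11986-12045, - strand): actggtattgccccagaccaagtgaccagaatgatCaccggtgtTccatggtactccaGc
PAU20 (chrXV:11612-11671, - strand): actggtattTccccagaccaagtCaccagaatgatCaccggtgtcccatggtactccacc
PAU24 (chrII:809297-809356, + strand): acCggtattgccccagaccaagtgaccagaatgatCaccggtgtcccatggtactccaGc

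Over all members, the share of a locus that occurs elsewhere in the genome was measured as the percent of its 50-base windows found at another place, since the reads were of that length. In 135 of the 251 members more than 50% of the windows were shared, and 50 of those were tested. Of the 54 members with at least 99% shared windows, 46 had 0 fragments. Among all 6905 loci used, 316 of 332 such loci had 0. None of the 84 members with at most 10% shared windows had 0 fragments. A listed 0 therefore gives no level for a repeated copy. The YRF1 genes, for Y' element helicases, were the clearest case: 6 of the 8 YRF1 members had 0 fragments, and none of the 8 was tested. Loci without a YRF1 symbol were not counted in this family. HMLALPHA2, at the silent mating locus, had 0 fragments with all of its windows shared, and HMLALPHA1, joined with YCL065W, had 5.

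**Figure D1:**
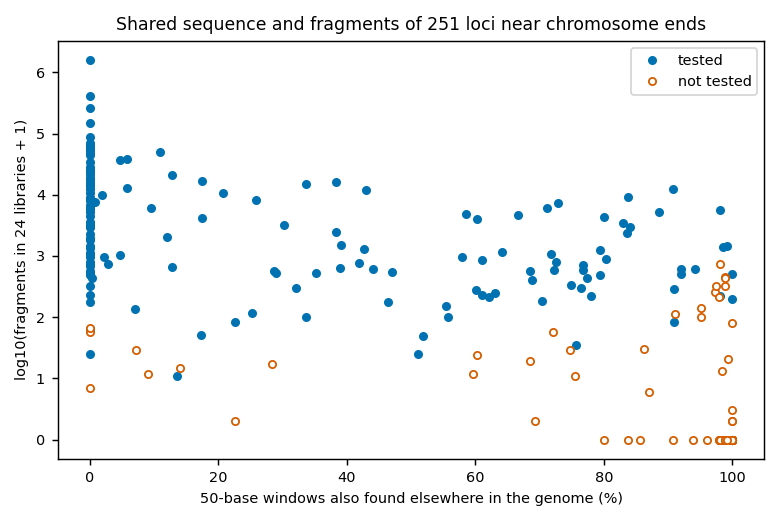
Fragments summed over the 24 libraries, as log10(fragments + 1), against the percent of 50-base windows that occur elsewhere in the genome, for each of the 251 members. Filled points are the 158 loci tested and open points the 93 not tested; loci at 0 fragments gather at the right edge, and the 84 with at most 10% shared windows all lie above 0.

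Levels were lower toward the ends. In Sc12 + IB, among loci with at most 10% shared windows, the median level per length was 4.40 CPM per kb at 0 to 5 kb from an end (n = 17 loci), 21.6 at 5 to 10 kb (n = 29) and 50.7 at 10 to 15 kb (n = 38). It was 44.5 at 15 to 30 kb (n = 178) and 59.1 farther in (n = 5867). In WT the medians in the same order were 5.84, 21.4, 38.9, 46.4 and 56.1 CPM per kb. CPM are fragments scaled for library depth, with TMM factors between libraries. Of the 158 members tested, 23 had a mean below 1 CPM, 59 had 1 to 10 CPM and 76 had at least 10 CPM.

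Isobutanol in Sc12 gave the largest number of members called among the 4 isobutanol responses. A locus was called when its fold change exceeded 2-fold, a log2 fold change beyond 1, at an adjusted p below 0.05 (edgeR quasi-likelihood test with Benjamini-Hochberg adjustment over all 6346 loci tested). In Sc12 + IB against Sc12, 41 members rose and 15 fell, so that 56 of 158 (35.4%) were called, against 27.8% of all loci tested. By direction, 25.9% of members rose against 17.2% of all loci, and 9.49% fell against 10.6%. The median log2 fold change was 0.22 over members and -0.02 over all loci. Without the 2-fold limit the order was reversed. An unadjusted p under 0.05 (edgeR) was seen in 63.3% of members and 74.9% of all loci. These shares were 65.2% and 71.4% in WT + IB against WT. They were 60.8% and 72.7% in Sc12 + IB + Trp against Sc12 + IB. In Sc12 + IB against WT + IB they were 68.4% and 75.1%. In all 56 the Sc12 + IB libraries did not overlap the Sc12 libraries. Nearly all called members showed this in the other main comparisons too, such as 49 of 50 in WT + IB against WT. The share over all called loci was not counted. Fewer expressing cells and less RNA per cell cannot be told apart in such bulk samples.

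The scaling bears on this split. The TMM factors were 0.588 to 0.687 in Sc12 + IB and 0.970 to 1.14 in the other libraries. Scaled by library totals alone, the median of all loci was -0.84, and 26 members rose and 56 fell. A change of scaling shifts all loci by nearly the same amount. The distance between the median of members and that of all loci was 0.24 under both scalings, could hardly have changed and is no check of the split. All directions given for Sc12 + IB are therefore relative to the bulk of genes. The 78 fold changes picked as the largest in their comparison all kept direction and call with library totals. Calls in the COS family and in the list of silencing genes, given below whatever their size, were partly lost.

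IRC7 (YFR055W), a cysteine beta-lyase that cleaves sulfur from cysteine and related compounds, lies 4.29 kb from the right end of chromosome VI (chrVI:263957-265226) and overlaps a dubious reading frame. It had 533, 597 and 843 CPM in Sc12 + IB, against 50.1, 41.5 and 46.1 in Sc12 (log2 fold change 3.84 ± 0.15 SE, adjusted p = 1.54e-16, edgeR). The Sc12 + IB + Trp libraries had 9.63, 11.8 and 8.19 CPM, and the Sc12 + Trp libraries 38.7, 40.8 and 37.0. IRC7 was thus above its control with isobutanol alone and below it with isobutanol plus tryptophan, where the log2 fold change was -1.97 ± 0.17 (adjusted p = 4.94e-10). In WT the levels were 28.6, 23.9 and 22.8 CPM with isobutanol and 33.0, 36.0 and 37.8 without, a difference short of the 2-fold limit (-0.50 ± 0.15).

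Most loci tested on the left arm of chromosome VIII rose. Of 8 members tested there, 6 rose and 1 fell, with a median log2 fold change of 2.21 (5 rose and 1 fell with library totals). Over all arms 25.9% of members rose, and 17.2% of all loci. No arm was fixed in advance, and this one had the highest median. PAU13 (YHL046C, 11.48 kb from the end), a seripauperin, had 4.85, 6.93 and 8.29 CPM in Sc12 + IB, against 0.353, 0.194 and 0.169 in Sc12 (log2 fold change 4.65 ± 0.41, adjusted p = 4.65e-10). PXP3 (YHL045W, 12.06 kb), a protein annotated to the peroxisome, had 11.3, 11.2 and 12.8 CPM in Sc12 + IB, against 0.529, 0.872 and 0.676 in Sc12 (4.07 ± 0.27, adjusted p = 2.52e-12). YHL048C-A (5.22 kb), a short reading frame whose product is also annotated to the peroxisome, had 14.8, 15.8 and 27.9 CPM in Sc12 + IB, against 1.32, 0.581 and 0.507 in Sc12 (4.48 ± 0.33, adjusted p = 2.71e-11). These 3 loci were at or below 1.32 CPM in every library of Sc12 and Sc12 + Trp. PAU13 shares 78.0% of its windows with other copies, PXP3 0.334% and YHL048C-A 12.8%.

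The remaining 3 that rose on this arm started from higher levels. DFP4 (YHL044W), a membrane protein of the DUP240 family, had 113, 128 and 127 CPM in Sc12 + IB, against 28.3, 22.8 and 22.5 in Sc12 (2.31 ± 0.16). ECM34 (YHL043W), a member of the related DUP380 subfamily, had 106, 120 and 129 CPM in Sc12 + IB, against 27.9, 29.2 and 24.9 in Sc12 (2.103 ± 0.15). COS8 had 115, 136 and 106 CPM in Sc12 + IB, against 50.5, 38.4 and 48.9 in Sc12 (1.37 ± 0.15). DFP4 and ECM34, and the other loci named here apart from COS8, were picked out after their values were seen. The locus that fell, YHL050C, lies at the very end and shares 80.0% of its windows (-1.23 ± 0.17). YHL046W-A, between COS8 and PAU13, had 0.01 ± 0.22. Just past the limit, YHL042W (15.22 kb, also of DUP380) had a log2 fold change of 4.00, and LYS1 on the right arm of chromosome IX (15.25 kb) had 3.00. Just inside it, PCA1 (14.98 kb) had -0.28.

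PAU13 and PXP3 face away from each other, with 216 bases between their start codons. The middle 96 bases, which both genes share as upstream sequence, are printed because both loci rose.
PAU13 to PXP3 (chrVIII:12346-12441, + strand): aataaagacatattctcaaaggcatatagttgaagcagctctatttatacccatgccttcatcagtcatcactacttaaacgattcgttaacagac
The stretches 350 to 101 bases before the start codon are given for DFP4, ECM34 and IRC7, which were among the members that rose (RefSeq, R64).
DFP4 (chrVIII:13215-13464, + strand): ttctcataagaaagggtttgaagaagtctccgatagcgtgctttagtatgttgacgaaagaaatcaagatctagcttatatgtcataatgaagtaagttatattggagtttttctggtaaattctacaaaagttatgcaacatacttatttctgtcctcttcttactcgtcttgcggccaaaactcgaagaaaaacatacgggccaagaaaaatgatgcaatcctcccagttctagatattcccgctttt
ECM34 (chrVIII:14551-14800, + strand): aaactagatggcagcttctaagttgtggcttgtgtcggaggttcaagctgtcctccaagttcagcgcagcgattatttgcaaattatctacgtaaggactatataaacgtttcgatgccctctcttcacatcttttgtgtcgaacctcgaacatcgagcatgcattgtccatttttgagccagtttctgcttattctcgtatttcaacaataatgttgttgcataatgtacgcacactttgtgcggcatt
IRC7 (chrVI:263854-264103, + strand): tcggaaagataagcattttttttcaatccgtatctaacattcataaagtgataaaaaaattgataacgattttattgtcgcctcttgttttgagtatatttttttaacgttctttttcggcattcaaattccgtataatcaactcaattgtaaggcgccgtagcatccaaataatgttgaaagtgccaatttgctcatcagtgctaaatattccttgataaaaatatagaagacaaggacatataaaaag
The motifs were searched on both strands, namely CCCCT, the stress response element of Msn2 and Msn4, TCGTATA, the sterol response element of Upc2, and TGACTCA, the Gcn4 site; none overlaps another as a string. None of the 4 printed stretches held a match, and so none has capitals. The same stretch before PAU13, not printed, held 1 CCCCT, at a place inside the reading frame of PXP3. Over 6007 upstream stretches of this length, 20.2% held CCCCT, 3.9% TCGTATA and 2.55% TGACTCA. Over the 35 members that rose in Sc12 + IB and had such a stretch, 17.1% (6) held CCCCT, 8.57% (3) TCGTATA and 0 TGACTCA.

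**Figure D2:**
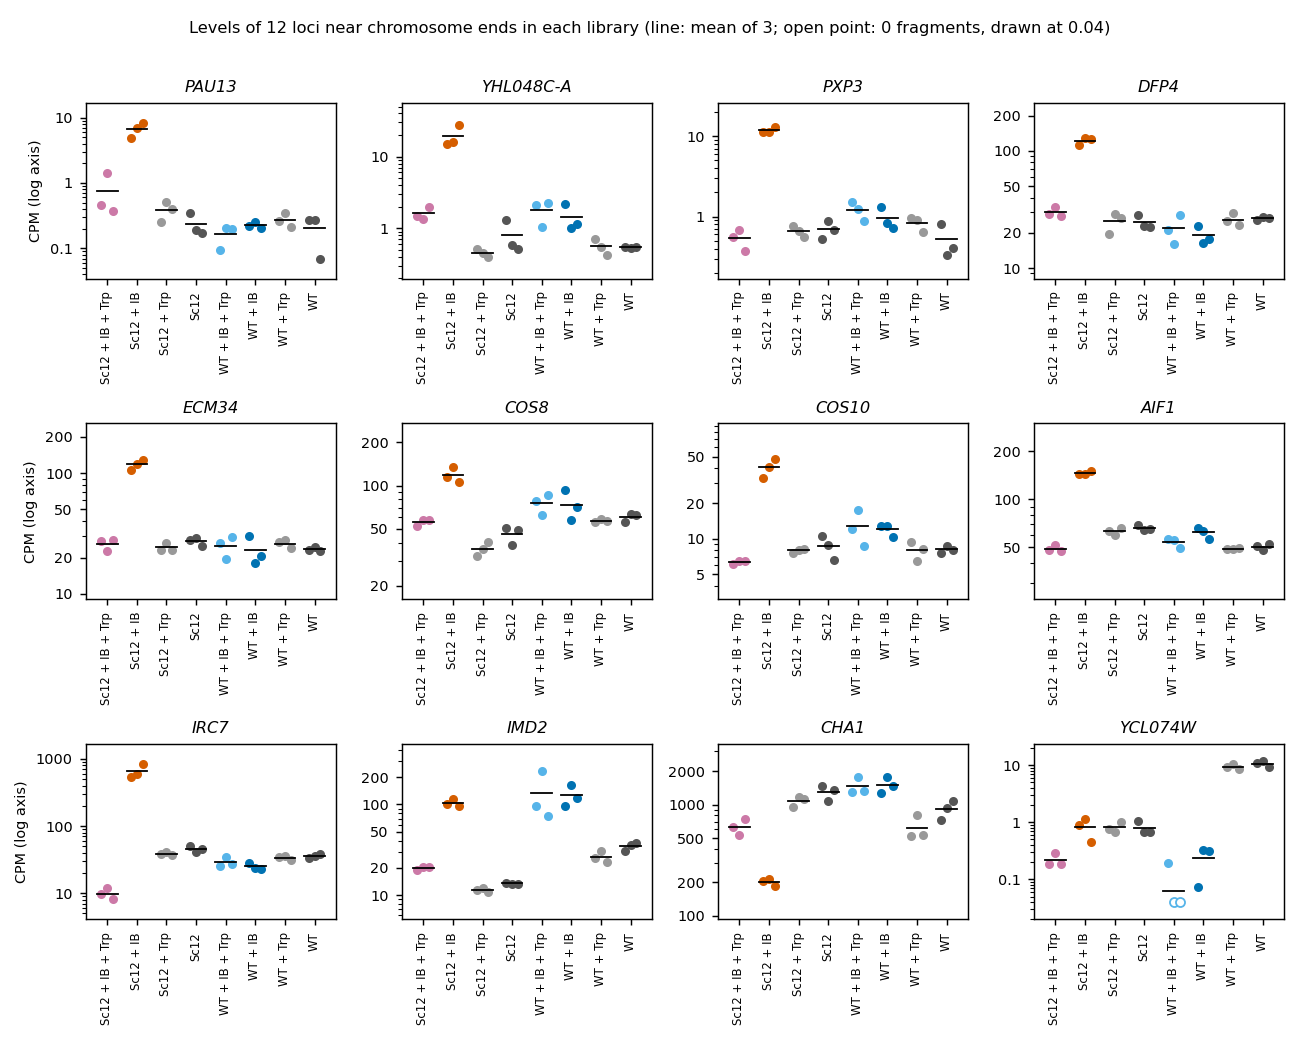
CPM on a log axis for 12 loci in each of the 24 libraries, with a line at the mean of each group of 3 and open points for libraries at 0 fragments. The 3 Sc12 + IB libraries stand above all others for PAU13, YHL048C-A, PXP3, DFP4, ECM34, COS8, COS10, AIF1 and IRC7, and below all others for CHA1; YCL074W is high only in WT and WT + Trp, at 8.65 to 11.9 CPM.

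Most of the COS genes tested rose in Sc12 + IB. Of 11 COS members 9 were tested, and 7 rose and none fell (median log2 fold change 1.12), where 17.2% of all loci rose. With library totals 2 rose and 1 fell (median 0.30). COS10 (YNR075W, right arm of chromosome XIV) had 32.8, 40.7 and 47.8 CPM in Sc12 + IB, against 10.5, 8.81 and 6.59 in Sc12 (2.19 ± 0.20, adjusted p = 1.1e-09), and shares none of its windows with another place. COS1 had 62.8, 64.04 and 55.03 CPM in Sc12 + IB, against 16.2, 10.1 and 13.2 in Sc12 (2.199 ± 0.15), but 71.1% of its windows are shared. COS12, also without shared windows, had -0.22, and COS9, with 0.85% shared, had 0.87. Neither was called. Among the others that rose, the shared windows were 83.0% in COS5, 72.3% in COS4, 66.6% in COS7, 38.3% in COS6 and 17.4% in COS8. Reads of such copies may come from another copy, so the 7 that rose are not 7 independent genes. COS2 and COS3 share all their windows and had 1 fragment each.

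The right arm of chromosome XIV, which carries COS10, had 5 of 8 tested members higher and 1 lower in Sc12 + IB, with a median log2 fold change of 1.36 (3 higher and 1 lower with library totals). Beside COS10 stood YNR075C-A, a short reading frame next to it, with 2.68, 2.40 and 3.77 CPM in Sc12 + IB against 0.794, 0.484 and 0.169 in Sc12 (2.42 ± 0.38). HXT17, of the hexose transporter family, had 30.2, 33.6 and 37.7 CPM in Sc12 + IB, against 12.0, 10.8 and 10.8 in Sc12 (1.59 ± 0.16). MAN2, a mannitol dehydrogenase (1.94 ± 0.17), and AIF1, a mitochondrial protein of cell death (1.14 ± 0.07), also passed the threshold and were picked out after their values were seen. AIF1 had 144, 143 and 149.7 CPM in Sc12 + IB, against 68.7, 64.6 and 64.9 in Sc12. On the left arm of the same chromosome 3 of 4 tested members rose. Over all arms 25.9% of members rose, and 17.2% of all loci. Both arms were among those with the highest medians and were not fixed in advance.

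**Figure D3:**
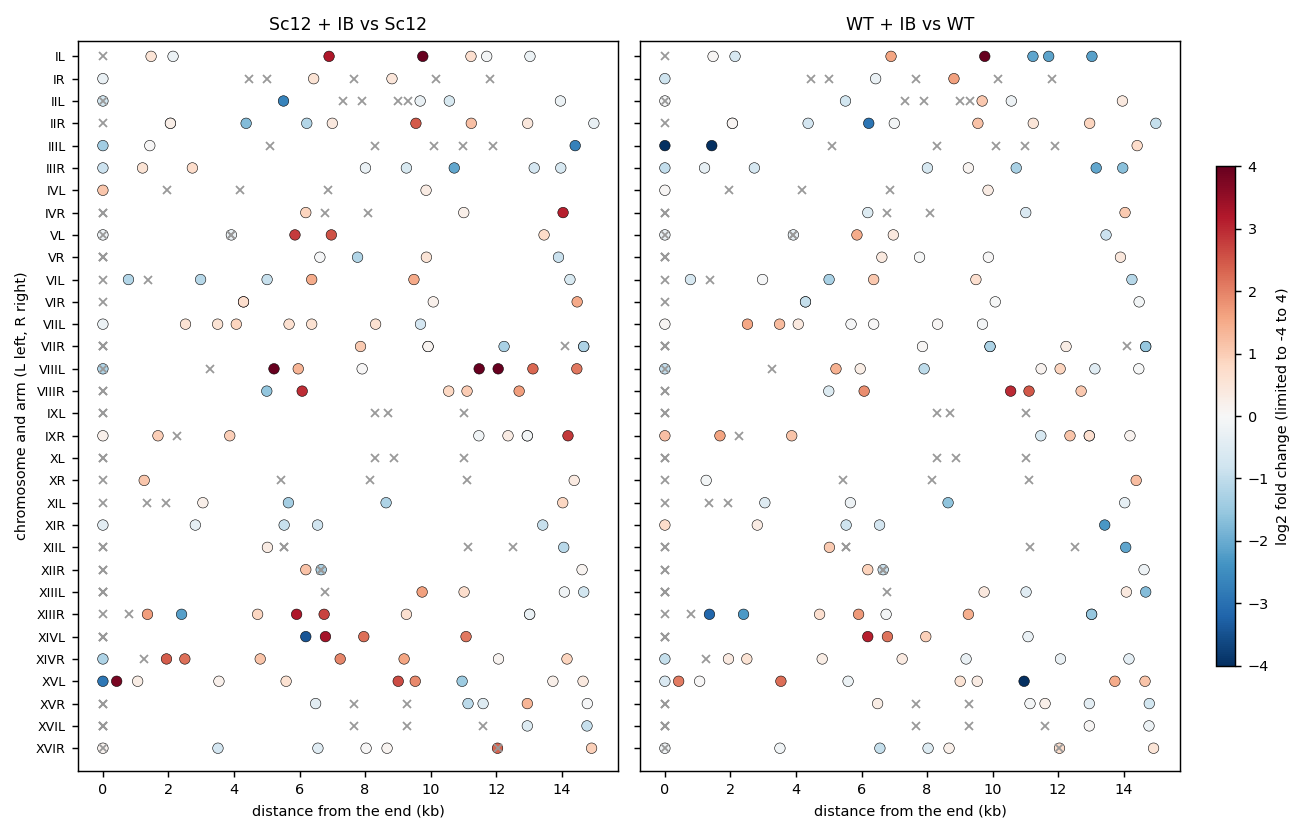
Log2 fold change of each member by chromosome arm and distance from the end in kb, for Sc12 + IB vs Sc12 at left and WT + IB vs WT at right; crosses are loci not tested, and colours are limited to -4 and 4. The highest arm medians in Sc12 + IB are 2.21 on the left arm of VIII, 2.15 on the left arm of XIV and 1.36 on its right arm.

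Elsewhere, several enzymes and transporters rose. NRE1 (YIR035C), a benzil reductase chosen here after its values were seen, had 560, 600 and 694 CPM in Sc12 + IB, against 89.6, 87.4 and 84.7 in Sc12 (2.82 ± 0.08, adjusted p = 4.97e-19). In WT it had 90.2, 90.3 and 83.2 CPM with isobutanol and 80.1, 80.1 and 79.6 without (0.14 ± 0.08). SEO1, a permease of the allantoate family, had 71.8, 93.0 and 99.4 CPM in Sc12 + IB, against 10.2, 9.30 and 7.95 in Sc12 (3.24 ± 0.24). MAL33, of the maltose gene family, had 309, 328 and 338 CPM in Sc12 + IB, against 58.3, 59.5 and 60.9 in Sc12 (2.45 ± 0.08). The maltase genes were lower: MAL32 had -1.73 ± 0.18 and MAL12 -1.29 ± 0.22, a pair whose windows are shared to 84.1% and 83.6%, and the permease gene MAL11 had -1.22 ± 0.11. MAL31, the permease gene beside MAL33, had 289.8, 337 and 293 CPM in Sc12 + IB, against 236, 232 and 224 in Sc12, without overlap but short of the 2-fold limit (0.41 ± 0.10). Of 7 sugar genes tested, 2 rose and 3 fell, where 17.2% of all loci rose and 10.6% fell. YAL066W, a dubious reading frame, had 22 fragments in the Sc12 + IB libraries and 1 in the Sc12 libraries, a ratio of 28.2 with a counting interval (95%) of 4.55 to 1162.

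Among the members called lower, CHA1 (YCL064C), the serine and threonine deaminase, had the largest fall. It had 206, 213 and 187 CPM in Sc12 + IB, against 1474, 1066 and 1365 in Sc12 (-2.69 ± 0.19, adjusted p = 1.18e-11). In WT it had 1264, 1762 and 1469 CPM with isobutanol, against 723, 923 and 1080 without (0.72 ± 0.18). The groups did not overlap in either strain, and they moved in opposite directions. YBL109W, a dubious reading frame, had 0.893, 0.424 and 0.301 CPM in Sc12 + IB, against 3.53, 3.78 and 3.38 in Sc12 (-2.66 ± 0.42). ERR3, an enolase-related gene, had 2.93, 2.54 and 2.11 CPM in Sc12 + IB, against 12.6, 10.9 and 11.8 in Sc12 (-2.21 ± 0.25), and YCR102C, a putative quinone oxidoreductase, had -2.09 ± 0.14. ERR1 and ERR2, which share all their windows, had 0 fragments.

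Tryptophan given with isobutanol lowered many members in Sc12. In Sc12 + IB + Trp against Sc12 + IB, 16 members rose and 42 fell (58 of 158, 36.7%, against 24% of all loci tested). Rises made up 10.1% of members, against 9.39% of all loci. Falls made up 26.6% of members, against 14.6% of all loci. The median was -0.10 over members and 0.02 over all loci. With library totals 47 rose and 19 fell, while the median of all loci moved to 0.77. This comparison shares the Sc12 + IB libraries with the preceding one. IRC7 had -6.06 ± 0.17 (adjusted p = 5.35e-19), PXP3 -4.43 ± 0.27, YHL048C-A -3.59 ± 0.29, YNR075C-A -3.32 ± 0.41 and PAU13 -3.11 ± 0.32. The Sc12 + IB + Trp libraries had 0.561, 0.673 and 0.377 CPM of PXP3, and 0.467, 1.44 and 0.377 CPM of PAU13. Of the 9 COS loci 7 fell and none rose (median -1.37; 1 fell with library totals). At 0 to 5 kb from an end, 10 of 44 tested members rose and 9 fell. The rises named next were in loci of low level. The joined YFL064C and YFL065C had 28 fragments in Sc12 + IB + Trp and 2 in Sc12 + IB (ratio 9.51, counting interval 2.40 to 82.4). YCR108C had 4.86, 5.96 and 6.78 CPM in Sc12 + IB + Trp, against 1.28, 0.848 and 0.754 in Sc12 + IB (2.58 ± 0.30). YBL109W had 2.77 ± 0.41, YBR300C 2.11 ± 0.34 and YNR077C 1.73 ± 0.23.

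**Figure D4:**
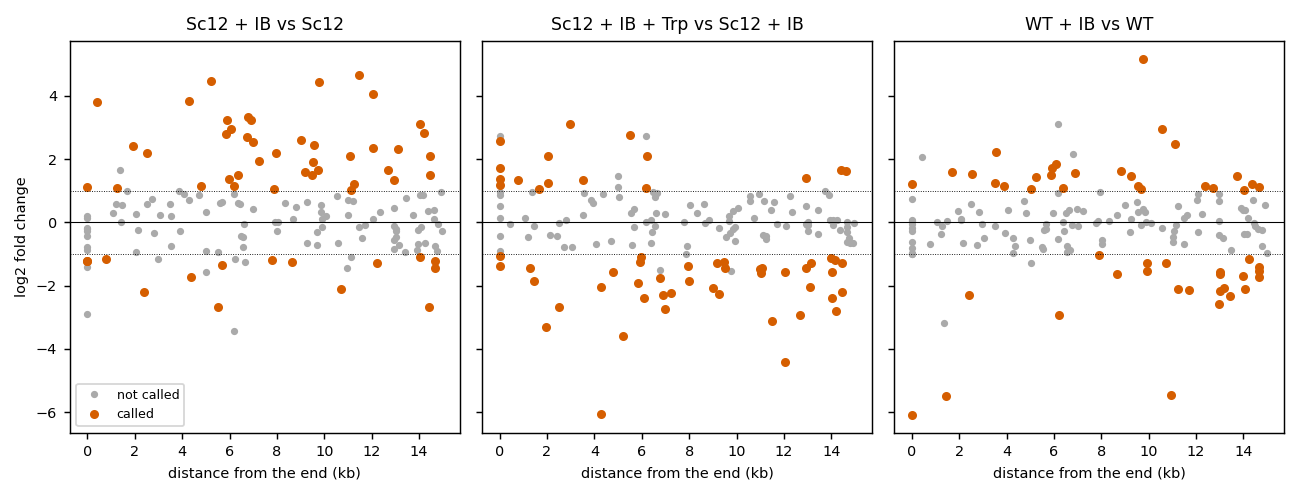
Log2 fold change of each tested member against its distance from the chromosome end in kb, for Sc12 + IB vs Sc12, Sc12 + IB + Trp vs Sc12 + IB and WT + IB vs WT; coloured points were called and dotted lines mark -1 and 1. Called members occur at 0 to 5, 5 to 10 and 10 to 15 kb, and the 5 largest rises in Sc12 + IB without overlap between libraries lie between 4.29 and 12.06 kb.

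With tryptophan present in both arms of the comparison, isobutanol called fewer members in Sc12. In Sc12 + IB + Trp against Sc12 + Trp 23 rose and 15 fell (38 of 158, 24.1%, against 17.9% of all loci), with a median of 0.12 against 0.02. By direction, 14.6% of members rose against 9.93% of all loci, and 9.49% fell against 8.02%. NRE1 had 85.6, 84.9 and 93.7 CPM in Sc12 + IB + Trp, against 81.4, 96.8 and 89.6 in Sc12 + Trp (-0.02 ± 0.08). DFP4 had 0.24 ± 0.16, ECM34 0.09 ± 0.16, PXP3 -0.27 ± 0.41 and PAU13 0.87 ± 0.49, and none of these was called. No COS locus was called (median 0.02). The largest rises were in loci of low level. YAL066W had 11 fragments in Sc12 + IB + Trp and 0 in Sc12 + Trp, at least 3.94-fold higher against a floor of 3 fragments over the group. YBR300C, which overlaps PAU24, had 2.60 ± 0.33, YOL166C 2.32, YFL064C with YFL065C 2.26 ± 0.54, and YMR321C, a paralog of the methyltransferase gene SAM4, 2.03 ± 0.36. The falls named were YCR102W-A (-2.99 ± 0.58), ERR3 (-2.78 ± 0.24), PAU3 (-2.10 ± 0.28), YCL076W (-2.09 ± 0.66) and IRC7. YCL076W rested on 3 fragments in Sc12 + IB + Trp and 15 in Sc12 + Trp, a ratio of 0.215 (counting interval 0.0398 to 0.759). Its fitted log2 fold change was -1.47 and short of the threshold without Sc12 + Trp replicate 3.

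In WT, isobutanol called about as many rises as falls. In WT + IB against WT 26 members rose and 24 fell (50 of 158, 31.6%, against 20.7% of all loci). By direction, 16.5% of members rose against 11.8% of all loci, and 15.2% fell against 8.89%. The median was -0.05 over members and -0.00 over all loci. The largest falls were in a pair of neighbours at the left end of chromosome III. YCL074W, annotated as a pseudogene with a fragment of a Ty polyprotein, had 0.0724, 0.333 and 0.312 CPM in WT + IB, against 10.8, 11.9 and 9.18 in WT (-5.49 ± 0.32, adjusted p = 1.3e-12). YCL076W, the outermost locus of that arm, had 3 fragments in WT + IB and 287 in WT, a ratio of 0.0130 (counting interval 0.00267 to 0.0385). YCL074W was low in Sc12 with and without isobutanol, with 0.893, 1.13 and 0.452 CPM in Sc12 + IB and 1.06, 0.678 and 0.676 in Sc12. YCL076W had 0.706, 0.290 and 0.507 CPM in Sc12.

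PAU20 had 0 fragments in the 3 WT + IB libraries and 21 in WT, at least 5.61-fold lower against a floor of 3 fragments over the group. YBR298C-A had 2 fragments in WT + IB and 22 in WT. YIR036W-A had 0.796, 0.333 and 0.416 CPM in WT + IB, against 3.59, 3.50 and 2.67 in WT (-2.59 ± 0.40). FLO10, a flocculin that makes cells adhere, had 24.7, 20.1 and 21.1 CPM in WT + IB, against 118, 112 and 105 in WT (-2.34 ± 0.12, adjusted p = 1.15e-13), and is the sole FLO gene among the members. FRE2, a ferric reductase, had -1.62 ± 0.12, while FET4, a low-affinity iron transporter, had 1.46 ± 0.09. MSC1, an abundant member, had 531, 522 and 512 CPM in WT + IB, against 1869, 1712 and 1592 in WT (-1.72 ± 0.12).

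Of the rises in WT, IMD2, an IMP dehydrogenase of GTP synthesis, had 97.3, 164 and 117 CPM in WT + IB, against 30.9, 35.9 and 38.02 in WT (1.85 ± 0.26). YAL066W had 14 fragments in WT + IB and 0 in WT, at least 5.82-fold higher. On the right arm of chromosome VIII, YHR214C-E had 7.45, 4.07 and 5.62 CPM in WT + IB, against 1.02, 0.538 and 0.617 in WT (2.97 ± 0.34), and its neighbour YHR214C-D had 2.47 ± 0.32. YHR214C-E shares 68.5% and YHR214C-D 100% of its windows, so that the source copy of these reads is uncertain. YOL164W-A had 11.8, 9.98 and 9.99 CPM in WT + IB, against 1.70, 2.69 and 2.33 in WT (2.24 ± 0.21).

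With tryptophan in both groups, the WT response was tested again. In WT + IB + Trp against WT + Trp 25 rose and 21 fell (46 of 158, 29.1%, against 19.7% of all loci), where 11.2% of all loci rose and 8.56% fell. YCL074W had 2 fragments in WT + IB + Trp and 415 in WT + Trp (ratio 0.00699, counting interval 0.000844 to 0.0254), and YCL076W had 2 in WT + IB + Trp and 235 in WT + Trp. ERR3 had -2.91 ± 0.36, YIR036W-A -2.85 ± 0.40 and MSC1 -2.43 ± 0.13. YHR214C-E had 2.88 ± 0.36, IMD2 2.35 ± 0.27, YMR321C 2.14 ± 0.40, PAU15 2.14 ± 0.44 and PAU11 2.08 ± 0.42. Apart from Sc12 + IB + Trp against Sc12 + IB, tryptophan was set against none in 3 comparisons, and no member was called in any of these 3 by edgeR, DESeq2 or limma. The share of all loci called by edgeR was 0.0158% in WT + Trp against WT, 0.378% in Sc12 + Trp against Sc12 and 0% in WT + IB + Trp against WT + IB. An unadjusted p under 0.05 was seen in 12 members (7.59%, against 7.08% of all loci) in WT + Trp against WT, in 20 (12.7%, against 10.4%) in Sc12 + Trp against Sc12, and in 14 (8.86%, against 15.3%) in WT + IB + Trp against WT + IB.

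Across the 4 isobutanol responses, 103 members were called in at least 1 (65.2%, against 47.4% of all loci) and 55 in none. MAL33, YEL074W, YMR321C, YAL066W and YHL048C-A rose in all 4, and ERR3 and MAL11 fell in all 4, against 1.73% of all loci that rose and 1.23% that fell in all 4. MAL33 had 1.77 ± 0.08 in Sc12 + IB + Trp against Sc12 + Trp and 1.17 ± 0.08 in WT + IB against WT. MAL11, the maltose permease gene, had 108, 84.1 and 113 CPM in WT + IB, against 311, 295 and 282 in WT (-1.54 ± 0.11). ERR3 had 0.651, 0.582 and 0.312 CPM in WT + IB, against 3.59, 2.82 and 1.64 in WT (-2.31 ± 0.34). CHA1 and IRC7 were each called in both directions. CHA1 had 1.24 ± 0.18 in WT + IB + Trp against WT + Trp.

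The strains were also set against each other. In Sc12 + IB against WT + IB 50 members were higher and 19 lower (69 of 158, 43.7%, against 27.2% of all loci, with 16.1% higher and 11.1% lower), with a median of 0.46 against -0.02. With library totals 26 were higher and 43 lower. The median of members was 0.48 above that of all loci under both scalings, a distance that scaling can hardly change. PAU13 had 4.85, 6.93 and 8.29 CPM in Sc12 + IB, against 0.217, 0.249 and 0.208 in WT + IB (4.81 ± 0.39), IRC7 had 4.71 ± 0.16, YHL048C-A 3.71 ± 0.29 and PXP3 3.57 ± 0.24. PAU20 had 5 fragments in Sc12 + IB and 0 in WT + IB, at least 2.74-fold higher. CHA1 was lower (-2.89 ± 0.19), as were MAL12 (-2.27 ± 0.20), YHR214C-E (-2.09 ± 0.36), MIX23 (-1.71 ± 0.13) and YOL164W-A (-1.55 ± 0.22). MIX23, a mitochondrial protein, had 16.8, 18.9 and 18.6 CPM in Sc12 + IB, against 60.4, 60.6 and 56.8 in WT + IB.

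Without isobutanol fewer members differed. In Sc12 against WT 5 were higher and 6 lower (11 of 158, 6.96%, against 3.31% of all loci, with 1.78% higher and 1.53% lower). ERR3 had 12.6, 10.9 and 11.8 CPM in Sc12, against 3.59, 2.82 and 1.64 in WT (2.13 ± 0.22), SNO4, of a family linked to vitamin B6, had 1.51 ± 0.33, and PAU24 had 1.33 ± 0.26. YCL074W (-3.66 ± 0.27), YCL076W (-3.65 ± 0.30) and IMD2 (-1.37 ± 0.30) were lower. In Sc12 + Trp against WT + Trp 9 were higher and 12 lower (21 of 158, 13.3%, against 3.21% of all loci, with 1.56% higher and 1.65% lower), among them ERR3 (1.98), PAU20 (1.73) and PAU24 (1.604) higher, and YCL076W (-3.57), YCL074W (-3.50) and the joined YPR202W and YPR203W (-1.96) lower. In Sc12 + IB + Trp against WT + IB + Trp 28 were higher and 15 lower (43 of 158, 27.2%, against 24% of all loci, with 11.8% higher and 12.2% lower). IMD2 had 18.9, 20.2 and 20.6 CPM in Sc12 + IB + Trp, against 96.2, 234 and 74.0 in WT + IB + Trp (-2.76 ± 0.28). YHR214C-B, a Ty polyprotein locus, had -2.75, YCR102W-A -2.29 and PAU12 2.54. YBR298C-A and YOL166C each had 20 fragments in Sc12 + IB + Trp and 2 in WT + IB + Trp (ratio 9.56, counting interval 2.32 to 84.4).

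The difference between the isobutanol responses of the strains without tryptophan was tested as an interaction. It was called in 65 of 158 members (41.1%, against 25.3% of all loci, with 16% higher and 9.27% lower), 51 with a higher log2 fold change in Sc12 and 14 with a higher one in WT. The median was 0.50 over members and -0.04 over all loci. With library totals the split was 19 and 43. By gene, the interaction was 4.51 ± 0.90 for PAU13 (adjusted p = 0.000157), 4.34 ± 0.21 for IRC7 (1.86e-14), 3.17 ± 0.48 for PXP3 (5.22e-06) and 2.69 ± 0.11 for NRE1 (9.94e-16). It was -3.41 ± 0.26 for CHA1 (1.08e-10). For YCL074W it was 5.49 ± 0.63 (1e-07), where the WT level fell and the Sc12 level was low with and without isobutanol.

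Seripauperin genes moved in both directions with isobutanol, and more were called higher than lower in Sc12 against WT. Of 19 PAU members 7 had 0 fragments and 9 were tested. In Sc12 + IB against Sc12 1 rose and none fell, where 17.2% of all loci rose and 10.6% fell. With library totals 1 rose and 3 fell. In WT + IB against WT 2 rose and 2 fell, where 11.8% of all loci rose and 8.89% fell. In Sc12 + IB + Trp against Sc12 + IB 4 rose and 2 fell, where 9.39% of all loci rose and 14.6% fell. PAU4 (1.63), PAU11 (1.34), PAU24 (1.25) and PAU15 (1.06) were higher there, and PAU13 and PAU3 (-1.85) lower. Between the strains, 5 of the 9 were higher and none lower in Sc12 + Trp against WT + Trp (median 1.25, against 1.56% of all loci called higher), and 5 were higher and none lower in Sc12 + IB + Trp against WT + IB + Trp (median 1.94, against 11.8%). With DESeq2 these were 3 and 4 higher and with library totals 5 and 6, again with none lower. In Sc12 against WT 1 was called higher (against 1.78% of all loci), and 8 of the 9 had a log2 fold change above 0. In Sc12 + IB against WT + IB 3 were higher and 1 lower (median 0.85, against 16.1% of all loci called higher). Whether tryptophan bears on the difference between the strains was not tested. The 9 tested copies share 39.0% to 78.0% of their windows, so they are not 9 independent genes. PAU24 had 5.14, 7.89 and 4.61 CPM in Sc12 + IB + Trp, against 2.17, 2.83 and 2.41 in Sc12 + IB.

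**Figure D5:**
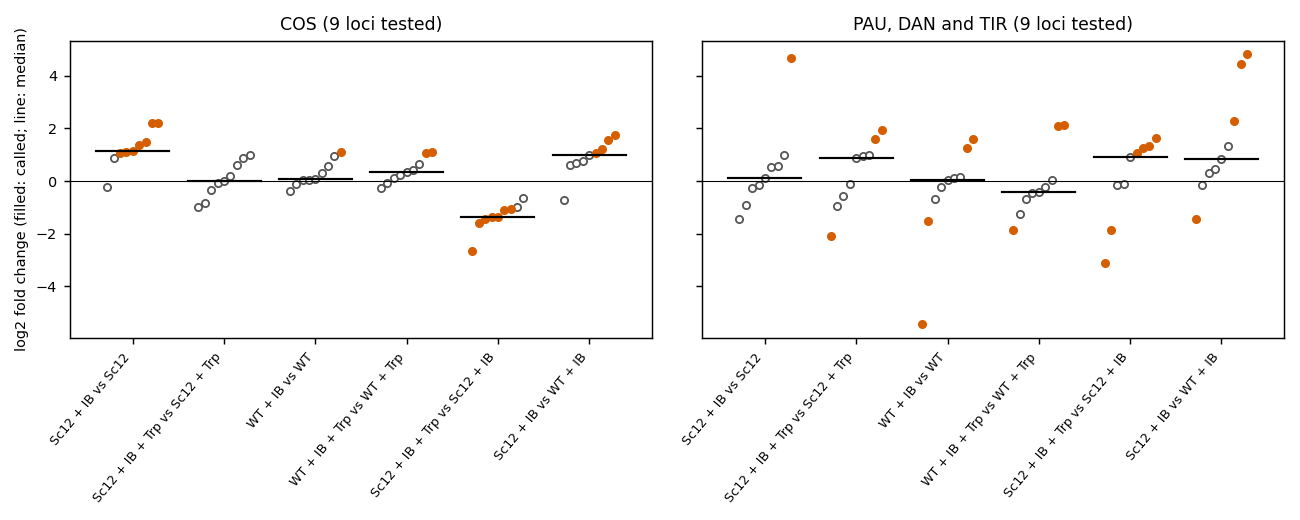
Log2 fold change of the 9 COS and 9 PAU loci tested in 6 comparisons; filled points were called, and the black line is the median. COS medians are 1.12 in Sc12 + IB vs Sc12 and -1.37 in Sc12 + IB + Trp vs Sc12 + IB, with 0.08 in WT + IB vs WT, while the PAU points spread on both sides of 0.

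The distance bin with the largest share of calls differed between comparisons. In Sc12 + IB against Sc12 7 of 44 tested members at 0 to 5 kb rose and 5 fell (27.3% called), 21 of 56 at 5 to 10 kb rose and 4 fell (44.6%), and 13 of 58 at 10 to 15 kb rose and 6 fell (32.8%). At 15 to 30 kb 33% of 203 loci were called, and farther in 27.1% of 5883. In WT + IB against WT the shares were 20.5%, 30.4% and 41.4% within the members, 26.1% at 15 to 30 kb and 20.1% farther in. In Sc12 + IB + Trp against Sc12 + IB the shares were 43.2%, 33.9% and 34.5% within the members, 27.6% at 15 to 30 kb and 23.5% farther in. In Sc12 + Trp against WT + Trp they were 22.7%, 14.3% and 5.17%, then 4.93% and 2.69%, and in Sc12 against WT 11.4%, 10.7% and 0%, then 2.96% and 2.67%. These 3 comparisons had their largest share at 0 to 5 kb. The differences between these distance bins were not tested.

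Genes for silencing near telomeres were read from a list of 30, of which 29 were tested. In Sc12 + IB against Sc12 5 of the 29 were called (17.2%, against 27.8% of all loci), and in WT + IB against WT 6 (20.7%, the same share as of all loci). In Sc12 + IB against Sc12 SAS5, a subunit of a histone acetyltransferase that limits the spread of silencing, rose (1.44), and SIR4, a core silencing protein (-1.497), the histone methyltransferase gene SET1 (-1.30), ESC1, which anchors telomeres at the nuclear rim (-1.07), and TBF1, which binds subtelomeric repeats (-1.06), fell (median of the list -0.46). With library totals none rose and 16 fell. In WT + IB against WT SAS5 (1.08) and NPT1, of NAD salvage (1.66), rose, and SIR4 (-1.24), TBF1 (-1.44), SWR1 (-1.80) and BDF1 (-1.59) fell (median -0.13). SIR1, SIR2 and SIR3 stayed within the 2-fold limit in both comparisons, with SIR2 at -0.49 in Sc12 + IB against Sc12 and 0.06 in WT + IB against WT. Whether these levels bear on the members was not tested.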

How the data were processed

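Total RNA in 24 libraries (8 groups of 3) was sequenced with 50-base single-end reads. According to the submitters' processing notes, bcl2fastq 2.18, Trimmomatic 0.39, FastQC, TopHat2 2.1.1 with Bowtie2 and Cufflinks 2.2.1 were used with the sacCer3 genome. The gene annotation and the treatment of reads with several matches are not given in the sources used here, nor is strand-aware counting, so that overlapping and antisense loci (62 members overlap another locus) cannot be told apart. The authors deposited estimated counts of fragments per locus and library without scaling; 98.83% of them lie within 0.001 of a whole number, and they were rounded. The deposited FPKM are the authors' fragments per kilobase scaled for depth and between libraries. Positions came from the authors' table of comparisons, whose fold changes and p-values were not used. Replicates numbered from 0 in the file were taken as the labelled replicates in order.

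A locus was tested if its FPKM averaged 1 or more across all 24 libraries (6346 of 6905; 24 more had a failed estimate). One edgeR 4.0.16 quasi-likelihood fit (R 4.3.3, TMM scaling, 8 group means, 16 residual degrees of freedom, common biological coefficient of variation 10.4%) gave all comparisons and the interaction. SE are the log2 fold change divided by the root of F. Benjamini-Hochberg adjustment was over all loci tested. On simulated data for WT + IB against WT (6346 loci), 100% of 100 loci changed by 1.5 on the log2 scale were called, 100% of 100 changed by 2, and 0.01627% of 6146 unchanged loci. The simulation used the dispersions fitted to these data. Its changed loci were drawn only from loci above a minimum of expected fragments. The shares for changed loci therefore do not cover members of low level. In each main comparison the 5 called members with the largest rise and the 5 with the largest fall, whose libraries did not overlap, were named, and up to 3 per direction in the others; members called in all 4 isobutanol responses, fixed families and the silencing list could also be named. Other loci in the text were chosen after their values were seen. Members and lists were chosen with earlier results of these data known. Where a group had at most 3 fragments, bounds against a floor of 3 fragments over the group or ratios with exact 95% intervals replaced the fitted fold change or were given beside it. Intervals cover counting error only. Interactions are fitted values throughout. Sequences and windows came from RefSeq R64, in which 5349 of 5830 single-gene loci (91.7%) had the same start and end. Of 267 systematic names of members, 195 matched a symbol. Alternatives were library totals, DESeq2 1.42.0, other filters, limma 3.58.1 on log2(FPKM + 1) and log2(FPKM + 0.1), a replicate block, each library left out, other windows, and members with shared sequence or overlap left out.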

Additional observations from a re-analysis of the deposited data

Results flagged for a closer look

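The isobutanol response differed between Sc12 and WT by the interaction test in 65 members, of which 13 had been named for the size of their response in Sc12 + IB against Sc12 or WT + IB against WT (edgeR, adjusted over all 6346 loci tested, 3 libraries in each of the 4 groups). For these 13, on the log2 scale and as the response of Sc12 minus that of WT, the difference was 5.49 for YCL074W, 4.69 for YCL076W, 4.51 for PAU13, 4.34 for IRC7, 3.17 for PXP3, 3.05 for YHL048C-A, 1.75 for YIR036W-A and 1.09 for IMD2. It was -3.41 for CHA1, -2.14 for YHR214C-E, -2.04 for YOL164W-A, -1.88 for YBL109W and -1.46 for YHR214C-D. Other members named in the text also passed, among them DFP4 (2.79), NRE1 (2.69), ECM34 (2.12), HXT17 (1.88), SEO1 (1.66), COS10 (1.62), MAN2 (1.597), FLO10 (1.42), MAL33 (1.28), MIX23 (-1.38) and MAL12 (-1.57). The members were named partly for their size in the same libraries, so these values describe them and are no independent test. YHR214C-D shares 100% and YHR214C-E 68.5% of their 50-base windows with other places, and PAU13 78.0%. YCL076W had 3 fragments in the WT + IB libraries. IMD2 rose in both strains, with log2 fold changes of 2.94 in Sc12 and 1.85 in WT.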

How the results depend on the processing

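No direction of the 78 fold changes of named members reversed under any setting run. These 78 were picked as the largest called changes in the same libraries, so a reversal was unlikely from the start. With DESeq2 77 of the 78 calls were kept, and with limma on log2(FPKM + 1) or log2(FPKM + 0.1) 67 each; the stricter filter kept all 66 that it tested. The lost call with DESeq2, and most of those lost when a library was left out, were of PAU20. Where a count changed by over 1.5 times, the values were as follows, and the cause was not tested beyond the smaller number of members counted. With library totals 26 rose and 56 fell in Sc12 + IB vs Sc12, 47 and 19 in Sc12 + IB + Trp vs Sc12 + IB, and 26 and 43 in Sc12 + IB vs WT + IB; the share of called members that were higher was then 31.71%, 71.2% and 37.7%, against 73.2%, 27.6% and 72.5% with TMM. In Sc12 vs WT it was 58.3% against 45.5%, and in Sc12 + Trp vs WT + Trp 60% against 42.9%. Leaving out members with over 50% shared windows (chosen after seeing the data) gave 17 higher in WT + IB vs WT, 15 higher in WT + IB + Trp vs WT + Trp, 9 lower in Sc12 + IB vs Sc12, 6 higher in Sc12 + IB + Trp vs Sc12 + IB, 12 lower in Sc12 + IB vs WT + IB, and 5, 9 and 24 called in Sc12 vs WT, Sc12 + Trp vs WT + Trp and Sc12 + IB + Trp vs WT + IB + Trp. limma on log2(FPKM + 1) gave 17 higher in WT + IB vs WT, 9 higher in Sc12 + IB + Trp vs Sc12 + IB, 12 lower in Sc12 + IB vs WT + IB, 6, 7 and 24 called in the same 3 strain comparisons, and 34 in the interaction; with a pseudocount of 0.1 it gave 7 higher, 11 lower, 7, 8 and 26 called, and 33. A window of 10 kb gave 8 lower in WT + IB vs WT, 8 in WT + IB + Trp vs WT + Trp, 9 in Sc12 + IB vs Sc12, 7 in Sc12 + IB + Trp vs Sc12 + Trp and 25 in Sc12 + IB + Trp vs Sc12 + IB, 28 higher and 10 lower in Sc12 + IB vs WT + IB, 27 called in Sc12 + IB + Trp vs WT + IB + Trp and 35 in the interaction. A window of 20 kb gave 23 lower in Sc12 + IB vs Sc12 and 25 lower in Sc12 + IB + Trp vs Sc12 + Trp. Without members that overlap or join genes 15 fell in WT + IB vs WT and 10 rose in Sc12 + IB + Trp vs Sc12 + IB, and with the whole locus required within 15 kb (chosen after seeing the data) 15 fell in WT + IB vs WT. Without near-identical families 7 were called in Sc12 vs WT and 12 in Sc12 + Trp vs WT + Trp.

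Leaving out each library in turn gave 23 to 27 higher and 24 to 28 lower in WT + IB vs WT, 24 to 27 and 20 to 25 in WT + IB + Trp vs WT + Trp, 39 to 43 and 15 to 19 in Sc12 + IB vs Sc12, 21 to 28 and 14 to 20 in Sc12 + IB + Trp vs Sc12 + Trp, 14 to 19 and 40 to 44 in Sc12 + IB + Trp vs Sc12 + IB, and 46 to 54 and 17 to 20 in Sc12 + IB vs WT + IB. It gave 9 to 12 called in Sc12 vs WT, 15 to 23 in Sc12 + Trp vs WT + Trp, 38 to 47 in Sc12 + IB + Trp vs WT + IB + Trp, 59 to 68 in the interaction, and 0 to 0, 0 to 1 and 0 to 0 in WT + Trp vs WT, Sc12 + Trp vs Sc12 and WT + IB + Trp vs WT + IB. The 1 is the joined YPR202W and YPR203W (-1.73, edgeR adjusted p = 0.0266), when Sc12 + Trp replicate 1, marked as make-up, was left out.

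Of 84 pairs of same-numbered libraries 15 had deviations correlated above 0.1, and in 30 the same number correlated best. The highest value was 0.603, between replicates 2 of WT + IB and WT + IB + Trp. Replicate 1 of WT + IB reached 0.56 with a differently numbered library of WT + IB + Trp. Whether some libraries share a batch was not tested. With the replicate block 24 members rose in Sc12 + IB + Trp vs Sc12 + Trp, 20 were called in Sc12 + Trp vs WT + Trp and 66 in the interaction, and no other count changed. Depth limits the 23 members below 1 CPM, for which a missing call is not evidence of an equal level, and the 93 members not tested have no result here.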
